A study of Rattus norvegicus with 8 samples.

Results

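The cytochrome P450 enzymes of families 1 to 3 were examined in kidney cortex of adult male and female RCCHanTMWIST rats. A gene was taken as a member when a non-control probe of the array carried a RefSeq accession of a rat gene whose symbol begins with Cyp1, Cyp2 or Cyp3 followed by a letter. This gave 37 genes among the 14737 genes with a named probe, measured by 44 of the 30367 non-control probes. They comprised 3 genes of family 1, 29 of family 2 and 5 of family 3. The reference annotation lists 60 genes of these families, and 15 of the protein coding ones and 8 pseudogenes had no named probe. For a gene with several probes, the probe with the highest mean signal was used.

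Cortical slices came from 4 male and 4 female rats, 1 rat per one-colour Agilent array. The animals were adults of the same strain under the same housing, and the labels name no treatment, so that sex was the factor compared. The labels give no age in weeks and do not state the oestrous stage or hormone levels of the animals. A cortical slice is whole tissue with tubules, glomeruli and vessels, and in such tissue fewer cells of a type and less RNA per cell cannot be told apart.

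Cytochrome P450 enzymes are haem proteins of the endoplasmic reticulum that insert oxygen into drugs, steroids, fatty acids and environmental chemicals. Enzymes of families 1 to 3 carry out most of the oxidation of foreign compounds, and several also act on arachidonic acid, vitamin D or sex steroids. Their electrons come from cytochrome P450 reductase (Por) and cytochrome b5. In rat liver a number of these genes are known for large differences between the sexes that depend on the pattern of growth hormone release. Family 1 is known as the target of the aryl hydrocarbon receptor (AhR). In the kidney these enzymes are known mainly from proximal tubule cells.

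Values are given as the log2 signal of the probe relative to the 75th percentile of its array, so that 0 is the 75th percentile and a difference of 1 is 2-fold. The strength of binding differs between probes, and genes were therefore not ranked by their level. Differences between genes within a rat, or sums over genes, are used only to compare rats. A probe was tested when its signal was well above background, by the flag of the scanner software, on at least 4 of the 8 arrays. Fold-changes are given as male minus female on the log2 scale. Expression was called sex-dependent where the adjusted p was below 0.05 and the difference was 2-fold or more.

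Of the 37 genes, 21 were tested, 19 of them with a signal well above background on all 8 arrays. Expression of 5 of these 21 was sex-dependent, while 1.89% of the 23425 tested probes of the array were called. Cyp2c11, Cyp2d1, Cyp2d5 and Cyp2d4 were male-dominant, and Cyp1a1 was female-dominant. Cyp2d1 and Cyp2d5 are each counted here and below, although they are uncertain as separate measurements. Among all tested probes, 0.798% were called as higher in males and 1.09% as higher in females. Cyp2d2 passed the adjusted p with a difference below 2-fold, which made 5 male-dominant genes and 1 female-dominant gene at the adjusted p alone. Of all tested probes, 8.06% passed the adjusted p alone, 3.39% higher in males and 4.67% higher in females. Differences of at least 8-fold were seen for Cyp2c11, Cyp1a1, Cyp2d1 and Cyp2d5, against 0.324% of all tested probes that were called at this size. The median log2 fold-change of the 21 genes was 0.01 and that of all tested probes −0.04, whereas the median absolute values were 0.24 and 0.15.

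**Figure D1:**
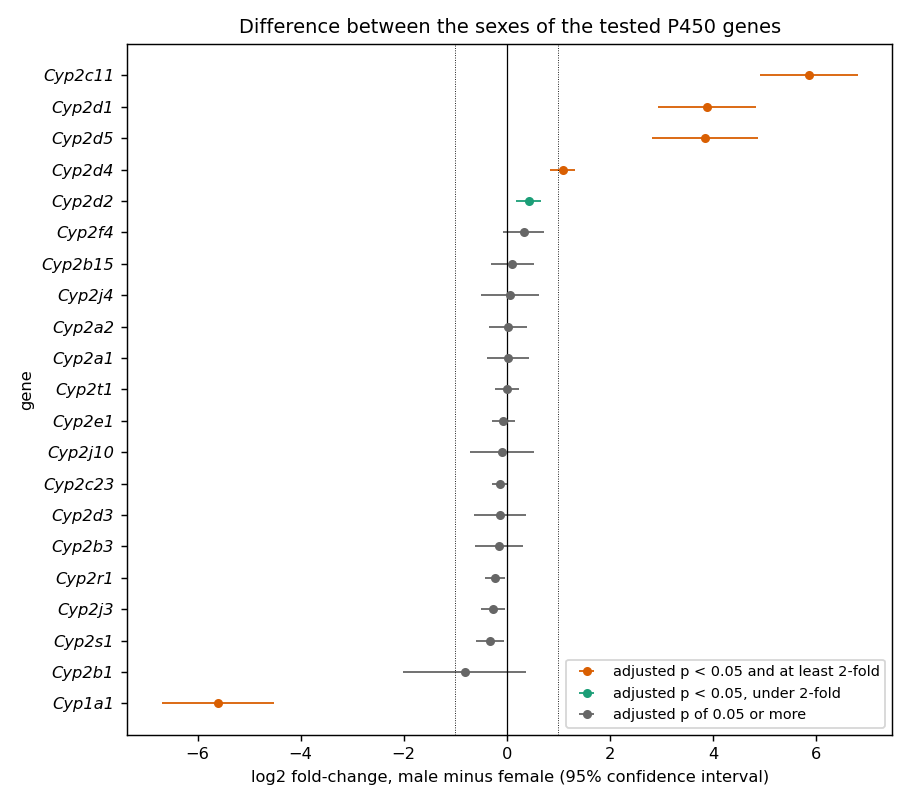
The plot shows the log2 fold-change between the sexes, male minus female, for each of the 21 tested P450 genes (points) with its 95% confidence interval (lines), and dotted lines mark 2-fold. Cyp2c11 (5.86), Cyp2d1 (3.88), Cyp2d5 (3.84) and Cyp2d4 (1.08) lie to the right, Cyp1a1 (−5.61) lies to the left, and 15 genes have an adjusted p of 0.05 or more.

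Among the drug- and steroid-metabolizing enzymes of family 2, Cyp2c11 showed the largest difference of the 21 genes. Cyp2c11 is the male-specific steroid hydroxylase of rat liver and also forms epoxides from arachidonic acid. In the male rats 1 to 4 its values were −0.07, −1.58, −0.82 and −0.64. In the female rats 1 to 4 they were −6.26, −7.30, −5.78 and −7.20. The lowest male lay more than 4 units above the highest female, and the signal was still well above background on all 4 female arrays. The log2 fold-change was 5.86 ± 0.41 (SE, n = 4 per sex), which is 57.9-fold higher in males (limma, adjusted p = 0.000391). Females 2 and 4 were nonetheless dim, and with normexp background correction the difference was 4.51, or 22.8-fold, so that its size is uncertain. No more than 7 of the 23425 probes, its own included, differed by as much. The exact permutation test gave p = 0.0286, two-sided, the smallest value that 4 against 4 rats allow, as it did for each of the other genes whose sexes did not overlap.

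Of the 6 other members of subfamily 2c, only Cyp2c23 could be tested. Cyp2c23, known as the main arachidonic acid epoxygenase of rat kidney, measured 5.94 ± 0.06 in females and 5.82 ± 0.08 in males (mean ± SD, n = 4). Its log2 fold-change was −0.13 (95% confidence interval −0.29 to 0.03, adjusted p = 0.283 by limma), and the sexes overlapped. Cyp2c12 and Cyp2c13, the female-specific and a male-specific steroid hydroxylase of rat liver, as well as Cyp2c6v1 and Cyp2c22, were well above background on none of the 8 arrays. Cyp2c7 was well above background on 1 female and 2 male arrays with its brightest probe, and on none with its other probes. In the reference annotation Cyp2c11 lies on chromosome 1 beside Cyp2c24, for which no named probe was found. A probe outside the 37 genes, because its accession was absent from the reference, is named by the study as similar to cytochrome P450 2C24. It measured −6.13, −5.61, −4.38 and −5.48 in females 1 to 4 and 0.08, 0.14, 0.27 and 0.20 in males 1 to 4. The sexes did not overlap (log2 fold-change 5.57 ± 0.32, SE, limma adjusted p = 0.000208). Counting it with the members would make 6 sex-dependent genes, 5 of them male-dominant.

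**Figure D2:**
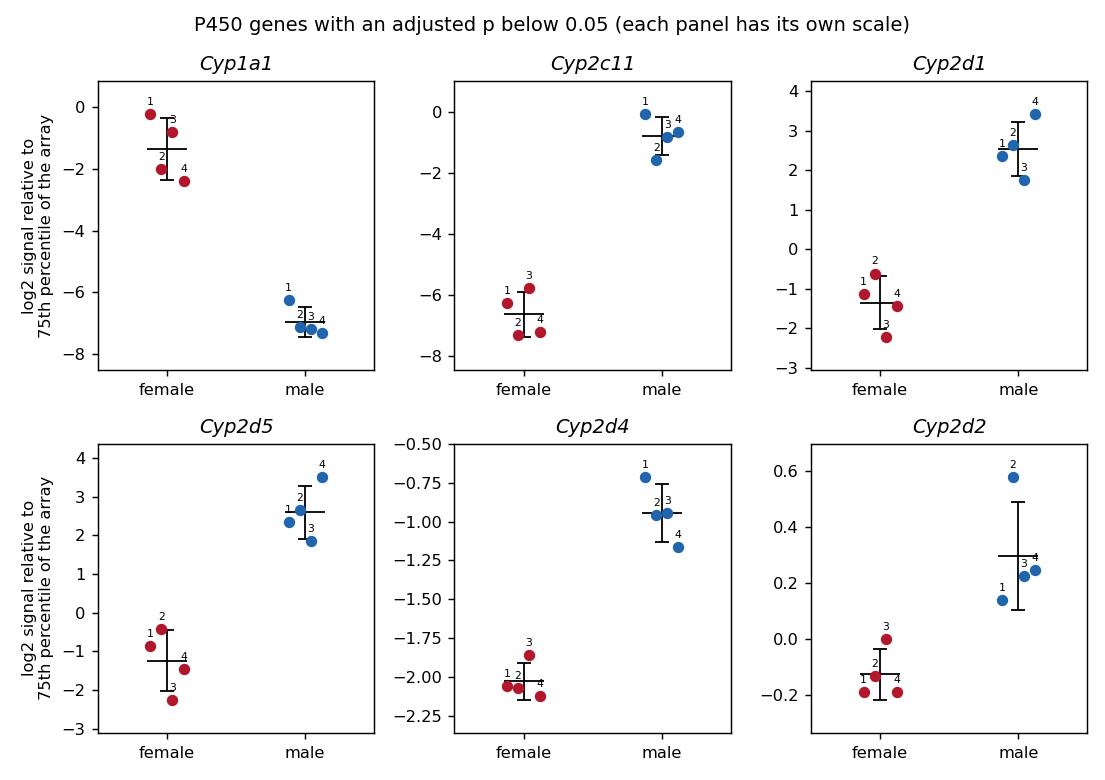
Each panel shows a P450 gene with an adjusted p below 0.05, with the log2 signal relative to the 75th percentile of the array on the vertical axis. Points are single rats with their replicate numbers, and the bar with whiskers is the mean ± SD of 4 rats. In every panel the female and male values are separate, and the scale differs between panels.

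Subfamily 2d holds the rat relatives of the human drug-metabolizing enzyme CYP2D6. All 5 measured genes were tested, and they lie near each other on chromosome 7 in the order Cyp2d4, Cyp2d5, Cyp2d1, Cyp2d3 and Cyp2d2, with 1 other gene between Cyp2d4 and Cyp2d5. For Cyp2d1, known for the hydroxylation of debrisoquine, the males 1 to 4 measured 2.35, 2.63, 1.75 and 3.41. The females 1 to 4 measured −1.13, −0.61, −2.21 and −1.44. All males were above all females, with male 4 the highest and female 3 the lowest. The log2 fold-change was 3.88 ± 0.41 (SE, n = 4 per sex), or 14.8-fold (limma, adjusted p = 0.00178).

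Cyp2d5 measured 2.33, 2.66, 1.86 and 3.50 in males 1 to 4. In females 1 to 4 it measured −0.88, −0.43, −2.25 and −1.45. The sexes were again separate, with a log2 fold-change of 3.84 ± 0.45 (SE, n = 4 per sex, limma adjusted p = 0.00250). The 8 rats followed each other closely on both probes. The Cyp2d1 value minus the Cyp2d5 value stayed between −0.26 and 0.04 in all 8 rats, and the rank order of the rats was the same for both genes in females and in males. Whether the probes of such close copies measured their own transcripts alone was not tested, and the values of Cyp2d1 and Cyp2d5 are uncertain as separate measurements.

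Cyp2d4, known as a P450 of brain, showed a smaller and very even difference. Its values were −0.71, −0.96, −0.94 and −1.16 in males 1 to 4 and −2.06, −2.07, −1.86 and −2.12 in females 1 to 4. The SD within a sex was 0.18 in males and 0.12 in females, against 0.69 and 0.67 for Cyp2d1. The log2 fold-change was 1.08 ± 0.11 (SE, n = 4 per sex), which is 2.12-fold (limma, adjusted p = 0.00138), and the 95% confidence interval of 0.84 to 1.33 includes differences below the threshold of 2-fold.

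Cyp2d2 measured 0.14, 0.58, 0.22 and 0.24 in males 1 to 4. In females 1 to 4 it measured −0.19, −0.13, 0.00 and −0.19. The sexes did not overlap, although the gap between the highest female and the lowest male was 0.14. The log2 fold-change of 0.42 ± 0.11 (SE, n = 4 per sex) is 1.34-fold, and its adjusted p of 0.0469 (limma) rose above 0.05 when any one array was left out. Cyp2d3 lay between −8.02 and −6.98 in females and between −7.88 and −7.46 in males. This is close to background, and its signal was well above background on 3 female and 4 male arrays. The female range enclosed all males (log2 fold-change −0.13, 95% confidence interval −0.63 to 0.37, adjusted p = 0.748 by limma). Among these neighbours the log2 fold-change thus ranged from −0.13 to 3.88.

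**Figure D3:**
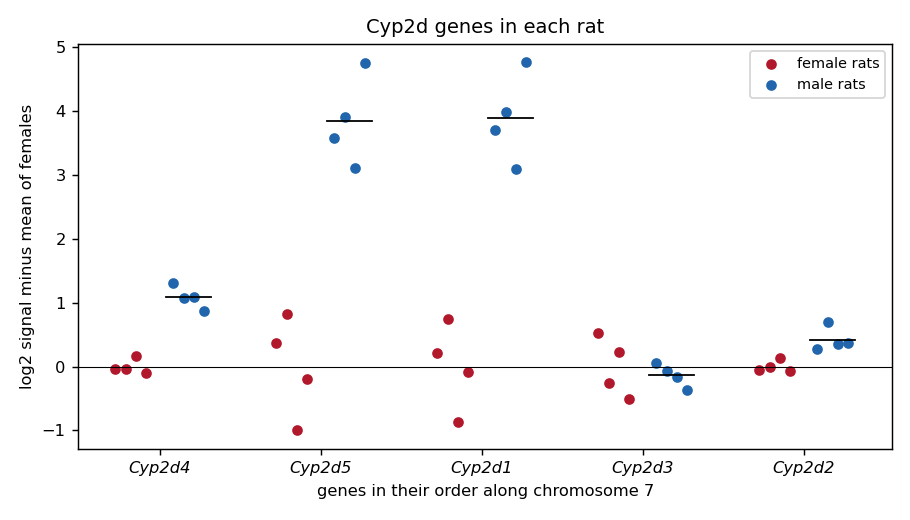
The plot shows the 5 Cyp2d genes in their order along chromosome 7, with the log2 signal of each rat minus the mean of the females on the vertical axis. Points are single rats and short lines are male means. The males lie about 3.9 above the female mean for Cyp2d5 and Cyp2d1 and 1.08 above it for Cyp2d4, whereas Cyp2d3 males lie within the range of the females. The signal of Cyp2d3 is close to background.

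The promoter sequences of Cyp2d5, Cyp2d1 and Cyp2d3 are shown because these 3 adjacent genes are closely alike upstream of the start and differed in their measured pattern. The 250 bases before the start are given 5′ to 3′ from RefSeq promoters of the build GRCr8. The places are chr7:115784488-115784737 for Cyp2d5, chr7:115793431-115793680 for Cyp2d1 and chr7:115802143-115802392 for Cyp2d3, all on the minus strand. Capitals mark the aligned bases that differ from Cyp2d5.
Cyp2d5: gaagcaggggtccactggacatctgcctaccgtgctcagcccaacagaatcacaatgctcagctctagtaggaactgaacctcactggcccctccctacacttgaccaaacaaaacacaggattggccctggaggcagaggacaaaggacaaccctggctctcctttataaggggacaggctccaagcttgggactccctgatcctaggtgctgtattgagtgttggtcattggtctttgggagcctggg
Cyp2d1: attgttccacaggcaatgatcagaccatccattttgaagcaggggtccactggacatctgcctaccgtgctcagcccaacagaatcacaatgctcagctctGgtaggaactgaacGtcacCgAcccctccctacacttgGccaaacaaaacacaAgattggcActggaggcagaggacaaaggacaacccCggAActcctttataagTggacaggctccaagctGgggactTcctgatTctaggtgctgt
Cyp2d3: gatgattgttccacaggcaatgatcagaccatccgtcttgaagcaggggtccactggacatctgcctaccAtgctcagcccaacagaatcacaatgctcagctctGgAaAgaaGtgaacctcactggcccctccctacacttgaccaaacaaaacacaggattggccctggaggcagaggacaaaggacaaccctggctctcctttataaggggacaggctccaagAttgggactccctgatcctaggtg

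In this stretch 14 of 215 aligned bases of Cyp2d1 and 6 of 211 aligned bases of Cyp2d3 differed from Cyp2d5. Over the full windows, which run from 250 bases before to 50 bases after the start, 92.8% of the 265 aligned bases were identical between Cyp2d1 and Cyp2d5. Between Cyp2d3 and Cyp2d5 96.2% of 261 aligned bases were identical. The Cyp2d3 window was thus at least as close to Cyp2d5 as that of Cyp2d1. The log2 fold-changes were −0.13 for Cyp2d3, 3.84 for Cyp2d5 and 3.88 for Cyp2d1. The Cyp2d3 probe was close to background, where a difference between the sexes could be missed. The part of the promoter sequence in these values was not tested.

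Such windows were found for 34 of the 37 genes, and Cyp1a1 was among those without one and was not searched. They were searched on both strands for GCGTG, the core that AhR binds, for TTCNNNGAA, a core shared by STAT5 and BCL6 sites, and for the palindromic HNF1 motif. GCGTG was present in Cyp1b1, Cyp2b1, Cyp2r1 and Cyp2t1, that is in 4 of 34 windows, against 31.1% of the 27457 promoters of the reference. TTCNNNGAA was present in 3 of 34, in Cyp2b12, Cyp2j4 and Cyp2t1, against 8.68% of all promoters. The HNF1 motif was in none of the members and in 1 promoter overall. None of the 3 motifs was in the windows of Cyp2c11, Cyp2d1, Cyp2d4 and Cyp2d5. The letters searched for AhR and for STAT5 and BCL6 are short. The HNF1 motif was so rare under an exact match that its absence from these windows says little. The window covers only the start of each gene.

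Family 1 holds the enzymes that oxidize polycyclic aromatic compounds and oestrogens. Cyp1a1, the classical target gene of AhR, was the only female-dominant member among the 21 tested. In females 1 to 4 it measured −0.23, −1.99, −0.81 and −2.38. In males 1 to 4 it measured −6.26, −7.11, −7.18 and −7.30, still well above background on all 4 arrays. Males 2 to 4 were nonetheless as dim as Cyp2a1, a probe close to background. The lowest female was above the highest male by more than 3 units, and the females spread more widely than the males (SD 1.00 and 0.48). The log2 fold-change was −5.61 ± 0.47 (SE, n = 4 per sex), which is 48.8-fold higher in females (limma, adjusted p = 0.000681). With normexp background correction it was −4.38, or 20.8-fold, so that its size is uncertain. Its chromosomal neighbour Cyp1a2, which in liver oxidizes caffeine, and Cyp1b1, which hydroxylates oestrogens, were well above background on no array.

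Liver markers were looked at beside this result, because many P450 genes are abundant in liver. Of 6 liver genes, Apoa1 and Tat were well above background on no array, and the albumin gene Alb was well above background on 3 female and 4 male arrays with means of −7.03 and −6.50. The summed signal of the 4 tested liver genes, in units of the 75th percentile of the array, ranged from 0.487 to 0.935 in females and from 0.137 to 0.183 in males. Ttr, which encodes the thyroid hormone carrier transthyretin, measured −0.86, −2.21, −1.74 and −2.96 in females 1 to 4. In males 1 to 4 it measured −6.18, −8.20, −7.95 and −7.56. Ttr was well above background on 4 female and 2 male arrays. The probe thus passed the filter through the females, its male values were partly at background, and the size of its difference is uncertain. Ttr ranked the females in the same order as Cyp1a1, with female 1 highest and female 4 lowest. Male 1 was the highest male for Cyp1a1, Ttr and Alb, whereas males 2 to 4 had opposite orders in Cyp1a1 and Ttr. The fibrinogen gene Fgb was called as well, with a log2 fold-change of −1.35. It ranked the rats otherwise than Cyp1a1, with female 1 the lowest female (−1.55), female 2 the highest (−1.38) and male 4 the highest male. Alb and Serpina1, the other genes in the sum, had 0.53 and 0.22 with overlapping sexes (limma, adjusted p = 0.704 and 0.443). The part of these genes in the Cyp1a1 result was not tested.

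The other genes of the AhR pathway gave a mixed picture. All 10 were tested, of which 1 was called in males and none in females, against 0.798% and 1.09% of all tested probes. The adjusted p alone was passed by 2, against 8.06% of all tested probes. The sexes did not overlap for 5 of the 10, against 18.5% of all tested probes. The called gene was Ahrr, which encodes the repressor that competes with AhR for its partner and is itself known as an AhR target. Ahrr measured −3.80, −3.70, −4.17 and −3.72 in males 1 to 4 and −6.83, −8.22, −7.01 and −6.68 in females 1 to 4. The sexes were separate, with a signal well above background on 4 male and 2 female arrays. The log2 fold-change was 3.34 ± 0.32 (SE, n = 4 per sex, limma adjusted p = 0.00114). Its size is uncertain because the probe passed the filter through the males and was partly at background in females, and with normexp background correction it was 2.02, or 4.06-fold. Where a signal well above background on all 8 arrays was required, Ahrr was not tested. The direction was opposite to that of Cyp1a1.

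The AhR targets Aldh3a1 and Nqo1 had log2 fold-changes of −0.68 (limma, adjusted p = 0.0368) and −1.10 (limma, adjusted p = 0.0519). Aldh3a1, an aldehyde dehydrogenase, thus fell short of 2-fold, and Nqo1, a quinone reductase, fell short of the adjusted p. For Nqo1 the females lay between −2.93 and −1.97 and the males between −4.02 and −3.12, without overlap, and Nqo1 was called under the stricter filter of all 8 arrays. Tiparp, an ADP-ribosyltransferase induced by AhR, and the glutathione transferase gene Gsta2 had positive values of 0.29 and 0.22 (limma, adjusted p = 0.0687 and 0.0987), also without overlap. Ahr itself had a log2 fold-change of −0.43 with overlapping sexes (limma, adjusted p = 0.212).

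Of the remaining 15 tested genes of family 2, none reached the adjusted p with the probe used. Their log2 fold-changes ranged from −0.82 to 0.32, their adjusted p from 0.123 to 0.974, and the sexes overlapped for 13 of them. The 95% confidence intervals of these differences reached from −2.01 to 0.71 at their widest. Together with the 6 genes past the adjusted p, 8 of 21 genes had sexes that did not overlap, against 18.5% of all tested probes.

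Among the enzymes of this group that act on fatty acids, Cyp2j3, Cyp2j4 and Cyp2j10 had log2 fold-changes of −0.27, 0.06 and −0.10. Cyp2j3, an epoxygenase of arachidonic acid, lay between −3.19 and −2.92 in females and between −3.42 and −3.08 in males. Its other probe gave −0.41 ± 0.07 (SE) with an adjusted p of 0.0122 (limma) and separate sexes, so that the outcome for Cyp2j3 depended on the probe. The probes of Cyp2j4 gave 0.06 and 0.01, both with overlapping sexes. Cyp2j10 was dim, with means of −7.17 in females and −7.27 in males, where a difference between the sexes could be missed.

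Cyp2e1, which oxidizes ethanol and acetone, lay between 4.15 and 4.40 in females and between 4.07 and 4.42 in males. Its log2 fold-change was −0.07 with a 95% confidence interval of −0.29 to 0.15, which is narrower than 2-fold in either direction. Cyp2r1, the 25-hydroxylase of vitamin D, lay between −2.39 and −2.07 in females and between −2.57 and −2.40 in males. The sexes did not overlap, but the log2 fold-change of −0.24 had an adjusted p of 0.125 (limma).

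Cyp2s1, an extrahepatic enzyme known to respond to AhR, lay between −0.64 and −0.36 in females and between −1.12 and −0.67 in males, without overlap. Its log2 fold-change was −0.33 ± 0.12 (SE, limma adjusted p = 0.123). The other probes of Cyp2s1 gave −0.45 and −0.49 with adjusted p of 0.0323 and 0.0271 (limma). All 3 probes thus had negative values below 2-fold, and the adjusted p was passed with the dimmer probes.

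In the clustered subfamilies 2a and 2b on chromosome 1, no gene passed the adjusted p. Cyp2a1 and Cyp2a2, testosterone hydroxylases that differ between the sexes in rat liver, had log2 fold-changes of 0.02 and 0.03, with adjusted p of 0.951 and 0.939 (limma). The females of Cyp2a2 lay between −8.01 and −7.29 and the males between −7.85 and −7.48. Both probes were close to background, where a difference between the sexes could be missed. Cyp2a2 was well above background on 3 female and 4 male arrays. Cyp2b1, the phenobarbital-inducible enzyme, measured −6.36, −6.61, −6.46 and −4.09 in females 1 to 4 and −6.45, −6.63, −6.76 and −6.95 in males 1 to 4. Female 4 stood apart from the 7 other rats. The log2 fold-change was −0.82 with a 95% confidence interval of −2.01 to 0.37 (limma, adjusted p = 0.368), and it was −0.22 without female 4.

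Cyp2b3 and Cyp2b15 had log2 fold-changes of −0.15 and 0.11, and the other probe of Cyp2b3 gave −0.39 (limma, adjusted p = 0.136). Cyp2f4, a naphthalene-oxidizing enzyme known from lung, had 0.32 (limma, adjusted p = 0.277), and its neighbour Cyp2t1 had 0.01. Cyp2b12, Cyp2b21, Cyp2a3, and Cyp2g1, the last known from olfactory mucosa, were well above background on no array.

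No gene of family 3, the steroid and drug oxidases with the broadest range of substrates, was tested. Cyp3a2, a male-specific enzyme of rat liver, Cyp3a9, Cyp3a62 and Cyp3a23-3a1 were well above background on none of the 8 arrays, and Cyp3a18 on 1 female array. In all, 16 of the 37 genes were not tested and 14 of them were well above background on no array. The values of these 16 genes ranged from −10.9 to −8.09. A difference between the sexes was not detectable for them with these probes, which does not show that the transcripts were absent.

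**Figure D4:**
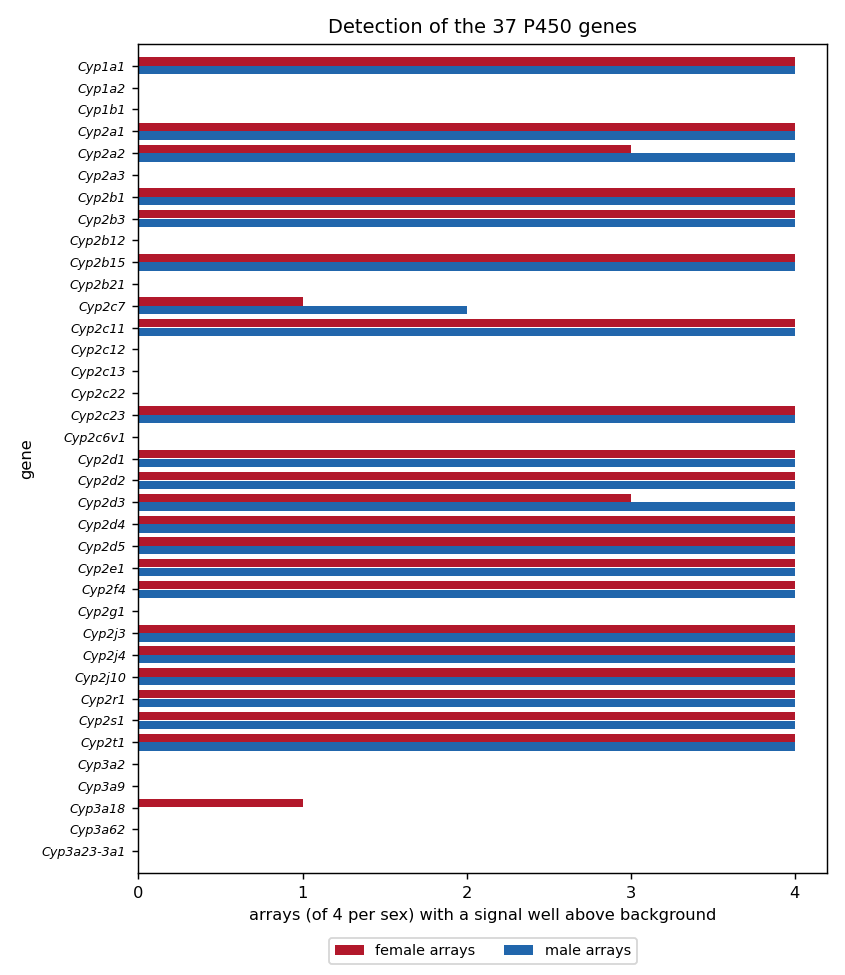
Bars give the number of arrays, out of 4 per sex, on which the probe of each of the 37 P450 genes was well above background. The bars of the sexes differ for Cyp2a2, Cyp2c7, Cyp2d3 and Cyp3a18, 19 genes have full bars in both sexes, and 14 genes have no bar.

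The genes that serve these enzymes were looked at as 5 lists of 56 genes in total, of which 54 had a named probe and 52 were tested. Only Ahrr among the 52 was called, against 1.89% of all tested probes. The adjusted p alone was passed by 7, 4 higher in males and 3 higher in females, against 8.06% of all tested probes, so that both counts were near the background. The median log2 fold-change of the 52 genes was 0.01. Of the 11 electron donors, 3 passed the adjusted p. Por, the reductase that feeds all of these enzymes, lay between −0.33 and −0.22 in females and between −0.03 and 0.17 in males. It was 1.26-fold higher in males (log2 fold-change 0.33 ± 0.07, SE, limma adjusted p = 0.0302). The cytochrome b5 reductase genes Cyb5r1 and Cyb5r2 moved in opposite directions, with log2 fold-changes of 0.50 and −0.43 (limma, adjusted p = 0.0125 and 0.0330).

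Of the 13 genes of haem synthesis and breakdown, Blvrb, a biliverdin reductase, passed the adjusted p (log2 fold-change 0.46, limma adjusted p = 0.00941). Ppox and Hmox1 followed with −0.38 and 0.57 and adjusted p of 0.118 and 0.169 (limma). Of the 10 tested xenobiotic receptors and cofactors, Nr0b2, which encodes the repressor SHP, passed the adjusted p with −0.77 (limma, adjusted p = 0.0111). Females of Nr0b2 lay between −0.46 and −0.26 and males between −1.45 and −0.92. The receptors PXR (Nr1i2) and CAR (Nr1i3) had log2 fold-changes of −0.20 and −1.21 with adjusted p of 0.182 and 0.198 (limma), and the sexes overlapped for both.

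Of the 8 tested epoxide and lipid partners, none passed the adjusted p. Ephx1, the microsomal epoxide hydrolase, had the smallest adjusted p of this list (0.0521, limma) with a log2 fold-change of 0.49 and separate sexes. Ephx4 and Ephx2 had −0.32 and 0.22, with adjusted p of 0.162 and 0.214 (limma). Ephx2 encodes the soluble epoxide hydrolase that acts on arachidonic acid epoxides.

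**Figure D5:**
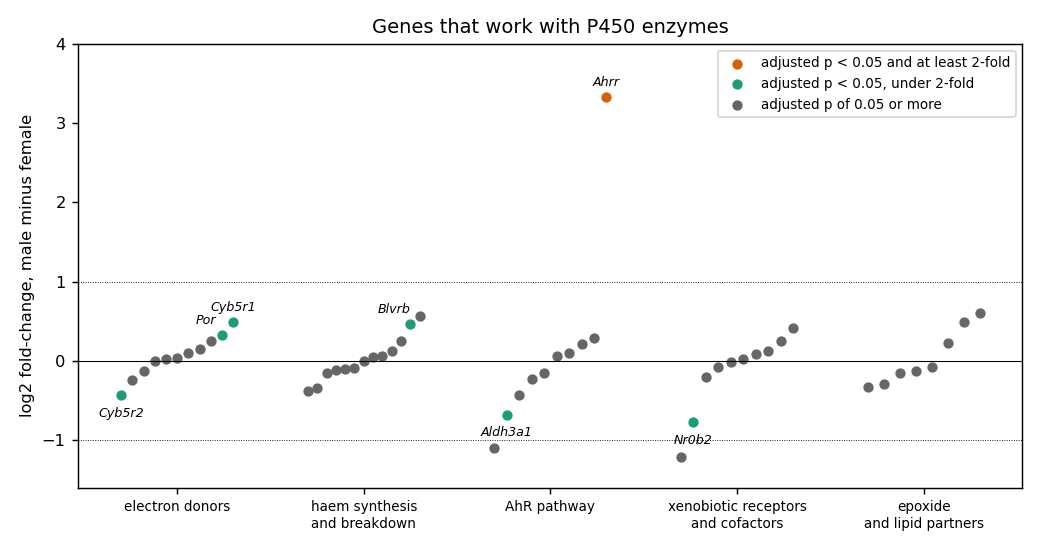
The plot shows the log2 fold-change between the sexes, male minus female, for 52 tested genes in 5 lists of P450 partners, 1 point per gene. Dotted lines mark 2-fold. Ahrr at 3.34 stands above all others, and the 6 further genes past the adjusted p are labelled and lie within 2-fold.

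The tissue label was checked against markers of cell types. All 8 proximal tubule genes were well above background on all 8 arrays, and their summed signal, in units of the 75th percentile of the array, ranged from 195 to 213 in females and from 205 to 216 in males. Within this list Cubn and Slc22a6 passed the adjusted p in opposite directions. Their log2 fold-changes were −0.59 and 0.38 (limma, adjusted p = 0.00452 and 0.0153). The sexes did not overlap for 4 of the 8, against 18.5% of all tested probes. The summed signal of the 4 glomerular genes was 12.2 to 13.0 in females and 10.5 to 11.0 in males, and that of 2 genes of the thick ascending limb 57.4 to 65.0 and 47.4 to 55.1. Of 6 adrenal genes, Star and Cyp11b1 were well above background on no array and Cyp11b2 on 2 female arrays, whereas Cyp11a1, Cyp21a1 and Hsd3b1 were well above background on all 8, with overlapping sexes. The part of these marker differences in the P450 results was not tested.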

How the data were processed

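RNA of cortical kidney slices from 4 female and 4 male rats was measured on 8 one-colour Agilent arrays of 1 slide, 1 rat per array, and sex and replicate came from the labels. The deposited signal intensity per spot was background-subtracted by the authors with Feature Extraction 10.7.3.1 and not normalized between arrays, and it comes with flags for outlier spots and for signals above background. A deposited table of log2 values holds the same distribution on every array and served as an alternative. The submitters' processing notes name limma 3.8.2, and the other steps behind these log2 values were not given in the sources used here.

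Outlier spots were left out, log2 was taken without a pseudocount, each array was scaled by its 75th percentile over non-control spots, and replicate spots were averaged. Probes well above background, by more than 50% of their spots, on at least 4 of 8 arrays were tested (23425). Male minus female was fitted with limma 3.58.1 (lmFit and eBayes, R 4.3.3), with Benjamini-Hochberg adjustment over these probes and no covariates. The fit was also run on simulated data with 200 changed probes, and the outcome of that run is not given here. Single genes were also tested by the exact permutation test over the 70 assignments of rats, two-sided. Of the probes, 73.8% to 79.1% per array were well above background, with no saturated spot, and 4 arrays per sex limit the precision. The p-values measure the spread between these rats.

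Probes were named by their RefSeq accession through the annotation of GRCr8, and 17514 probes had a name. Members, gene lists and tests were chosen with earlier results of these data known. Every member is accounted for, values in every rat are given for members past the adjusted p, and of each partner list the called genes, or else up to 3 with the smallest adjusted p, are named. Some values given in addition (Aldh3a1, Nqo1, Tiparp, Gsta2, Ahr, Ttr, Cyp2b1, Cyp2d3) were chosen after they were seen. Alternatives were quantile normalization, the authors' log2 values, normexp background correction, no or stricter filters, outlier spots kept, array weights, a robust prior with an intensity trend, the replicate number or slide row as a block, other probes of a gene, and each array left out. Protein identity was not run.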

Additional observations from a re-analysis of the deposited data

Results flagged for a closer look

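Among 44 groups of 4 values, those of the 21 tested P450 genes and of Ahrr in each sex, 3 had a rat far from the other 3 by Dixon's test, while chance gives about 1 in 20. Cyp2b1 in female 4 was −4.09, with the other females between −6.61 and −6.36. Cyp2j4 in male 1 was −0.34, with the other males between −0.91 and −0.83. Cyp2t1 in male 2 was −0.41, with the other males between −0.66 and −0.62. None of these 3 genes was sex-dependent.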

How the results depend on the processing

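The same 5 genes, Cyp1a1, Cyp2c11, Cyp2d1, Cyp2d4 and Cyp2d5, were sex-dependent under all 18 alternatives, with 300 to 473 calls among all probes against 443. Each of these 5 genes rests on a single named probe, so that the use of other probes could not change its call. The authors' log2 values turned the split of all calls from 187 higher in males and 256 in females to 223 and 223, and quantile normalization to 226 and 218, with the same P450 calls. The number of genes past the adjusted p was 5 or 6, since Cyp2d2 was above it under 12 of 18 alternatives (no filter, array weights, both blocks and every left-out array, adjusted p 0.0531 to 0.106 for the latter). Among the partner genes, Ahrr alone was called except that 2 (Ahrr and Nqo1) were called with an intensity trend and robust prior and Nqo1 in place of Ahrr where a signal on all 8 arrays was required. With normexp the log2 fold-changes of Cyp2c11, Cyp1a1 and Ahrr were 4.51, −4.38 and 2.02. Replicate numbers did not pair the rats (correlation of same-numbered rats −0.01 to 0.13, with 2 of 4 pairs correlating best), and with the replicate number as a block 5 genes were called, with 1 partner gene and 372 probes in all.

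Small differences changed sign: Cyp2a1, Cyp2a2 and Cyp2t1 with normexp (−0.0831, −0.0718 and −0.00716), Cyp2t1 with array weights (−0.0209), Cyp2d3, Cyp2e1 and Cyp2j10 with quantile normalization (0.00415, 0.0119 and 0.0266), and Cyp2e1 and Cyp2j10 with the authors' log2 values (0.000536 and 0.00955). Leaving out 1 array gave ranges of −0.0894 to 0.145 for Cyp2a1, −0.0645 to 0.175 for Cyp2a2, −0.300 to 0.0445 for Cyp2d3, −0.284 to 0.0944 for Cyp2j10, −0.164 to 0.215 for Cyp2j4 and −0.0594 to 0.0675 for Cyp2t1. The causes were not tested. Signal near the background left 16 of the 37 genes untested. It also limits what can be read from the tested Cyp2d3, Cyp2a1, Cyp2a2 and Cyp2j10.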
